A study of Mus musculus with 8 samples.

Results

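Transcripts of 10 genes for growth factor receptors and their ligands were followed in mouse liver: the receptors Egfr, Erbb2, Erbb3 and Met, the EGF-family ligands Areg, Ereg, Hbegf, Btc and Tgfa, and the MET ligand Hgf. They were taken by gene name from the deposited count table, which lists 37583 genes, and all 10 were found. Of these, 8 had enough counts to be tested, and Areg and Ereg did not. The libraries came from whole livers of C57BL6/CBA mice aged 8 months. WT held 2 libraries of wild-type mice with no treatment in the labels. PR-SET7_LOBE held 4 libraries of mice, likewise with no treatment, of the genotype PR-SET7_LX_ALB_CRE, in which the albumin-driven Cre recombinase inactivates Pr-Set7 in hepatocytes and other liver cells keep the gene. Pr-Set7 is the methyltransferase that places a single methyl group on a lysine of histone H4, and the labels do not explain LOBE. DEN_WT held 2 libraries of wild-type mice that received diethylnitrosamine (DEN), a liver carcinogen, into the peritoneum at postnatal day 15, at 25 ml per kg with no concentration stated. The labels do not say that the libraries of a group came from separate animals, so p-values measure the spread between these libraries, which may be technical.

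EGFR (also called ERBB1), ERBB2 and ERBB3 are surface receptors that pair after ligand binding and signal through the RAS-MAP kinase and PI3 kinase routes. ERBB2 binds no known ligand itself, and ERBB3 has little kinase activity and binds some of the neuregulins. The EGFR ligands are made as membrane proteins and released by proteases. MET is the receptor of hepatocyte growth factor, which in liver is made mainly by stellate and endothelial cells and acts on hepatocytes, and both systems are known for their part in liver regeneration.

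With edgeR's quasi-likelihood test, Btc, the gene of betacellulin, was the 1 member that rose, in DEN_WT against WT, and this call was lost with a GC correction and without any 1 of the WT or DEN_WT libraries. Over all 17362 tested genes, edgeR called 9.73% in that comparison, and 5.18% rose. DESeq2 also called Hbegf there, and voom also called Hbegf and Met, where these tools called 3144 and 6335 of 17362 genes. Egfr and Erbb3 were the most abundant members per length in every group, and Egfr varied several-fold within PR-SET7_LOBE. Tgfa held most of the summed ligand level in every library, and Btc took a larger share in both DEN_WT libraries and 3 of the 4 PR-SET7_LOBE libraries than in WT. In the libraries with the larger Btc share, gene levels deviated downward with transcript GC content (values below), and its part in the shares was not tested. In PR-SET7_LOBE against WT, edgeR called 0 of the 8, and DESeq2 and voom each called Erbb3, which was lower. Over all 17362 genes, edgeR called 43 (0.248%) in that comparison, DESeq2 890 and voom 386.

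Total counts ran from 7305595 to 16108081 per library, and 3 counts, the limit a count of 0 allows, correspond to between 0.265 and 0.287 CPM (counts per 1000000 of the scaled library size). Reads were amplified without molecular identifiers, so intervals and this limit cover counting error only. PR-SET7_LOBE replicate 1 stood apart from its group. Its gene levels deviated from the mean of all libraries with transcript GC content at r = 0.607 across genes, while the other PR-SET7_LOBE libraries gave -0.0453, -0.289 and -0.231, WT gave 0.297 and 0.194, and DEN_WT gave -0.276 and -0.246. Genes are not independent replicates, and these r are a description. Setd8, the gene of Pr-Set7, ranged from 46.5 to 62.6 CPM over the libraries labelled PR-SET7_LOBE, against 51.9 and 56.0 CPM in WT. DEN_WT had 40.02 and 42.8 CPM. Counts of the whole gene do not check the deletion, because the deleted exons are not given and other cells keep the gene. The 10 hepatocyte markers, led by Alb and Apoa1, summed to between 38499 and 148031 CPM per library, and none was at 0 throughout, as the labelled tissue would have it.

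Windows of 250 bases before the start of the gene, from RefSeq on GRCm38.p6, were in the sequence table for 7 of the 10 members. Those of Btc and Areg are shown because the genes lie in 1 ligand cluster and had few counts in WT, and those of Egfr and Met because they are the receptors that name both systems. Each runs 5′ to 3′ along the gene's strand and ends at the base before the start. Capitals mark matches, on either strand, to 6 motifs: AP-1 (TGACTCA), CRE (TGACGTCA), EGR1 (GCGTGGGCG), ETS (CCGGAAG), GC box (GGGCGG) and the TATA motif, spelled TATAAA.
Btc, chr5:91402995-91403244, minus strand: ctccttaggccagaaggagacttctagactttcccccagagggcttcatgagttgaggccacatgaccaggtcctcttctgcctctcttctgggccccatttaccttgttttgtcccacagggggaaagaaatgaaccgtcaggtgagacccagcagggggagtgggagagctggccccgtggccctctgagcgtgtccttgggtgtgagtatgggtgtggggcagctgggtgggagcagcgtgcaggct
Areg, chr5:91139349-91139598, plus strand: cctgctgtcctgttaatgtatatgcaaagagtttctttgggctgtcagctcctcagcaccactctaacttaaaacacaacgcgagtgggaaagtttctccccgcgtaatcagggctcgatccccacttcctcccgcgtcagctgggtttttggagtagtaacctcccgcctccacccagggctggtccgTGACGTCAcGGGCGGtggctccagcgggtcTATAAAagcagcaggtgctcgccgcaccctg
Egfr, chr11:16751953-16752202, plus strand: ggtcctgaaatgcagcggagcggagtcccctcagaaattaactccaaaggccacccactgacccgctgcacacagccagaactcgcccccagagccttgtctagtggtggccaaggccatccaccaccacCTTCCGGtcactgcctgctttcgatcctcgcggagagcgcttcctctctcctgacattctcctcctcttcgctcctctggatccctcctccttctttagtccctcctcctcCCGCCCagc
Met, chr6:17463707-17463956, plus strand: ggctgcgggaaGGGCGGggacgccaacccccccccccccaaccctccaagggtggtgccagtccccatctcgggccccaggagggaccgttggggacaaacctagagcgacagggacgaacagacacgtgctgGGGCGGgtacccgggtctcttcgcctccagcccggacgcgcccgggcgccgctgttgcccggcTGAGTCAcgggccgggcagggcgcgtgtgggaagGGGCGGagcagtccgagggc

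Areg's window held a CRE at 61 bases before the start, a GC box at 52 and a TATA match at 31, and Btc's window held none of the 6 motifs. Met's window held 1 AP-1 match at 54 bases and 3 GC boxes, and Egfr's held an ETS match at 120 and a GC box at 9. Over 32851 windows of this length, the share with a match was 4.46% for AP-1, 1.55% for CRE, 0.536% for EGR1, 6.91% for ETS, 32.7% for GC box and 12.4% for TATA. A match is a description of letters, not a site.

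Egfr (ENSMUSG00000020122, mm9 chromosome 11, 16652206 to 16818161, plus strand) was at 402 and 215 CPM in WT, at 233, 36.9, 74.4 and 221 CPM in PR-SET7_LOBE, and at 504 and 447 CPM in DEN_WT. Both DEN_WT libraries were above every other library, and PR-SET7_LOBE overlapped WT, with replicates 2 and 3 below both WT libraries. The highest PR-SET7_LOBE library was 6.31 times the lowest, the widest such ratio of the 8 tested members. Against WT, the log2 fold change was -1.13 in PR-SET7_LOBE (SE 0.64, adjusted p = 0.370) and 0.63 in DEN_WT (SE 0.76, adjusted p = 0.615), where it turned to -0.011 with the GC correction. PR-SET7_LOBE against DEN_WT gave -1.75 (SE 0.64, adjusted p = 0.107). That difference passed with DESeq2 (adjusted p = 0.0370), with voom (0.00429) and with no filter (0.0251). Adjusted p-values here and below are from edgeR's quasi-likelihood test over all 17362 tested genes unless another tool is named, with rose and fell kept for an adjusted p under 0.05. Egfr shares bases with 2 genes on the opposite strand, which together had 49 and 3 counts in all libraries.

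Erbb3 (ENSMUSG00000018166, chromosome 10, 128004579 to 128026708, minus strand) was at 151 and 176 CPM in WT, at 102, 36.4, 59.4 and 43.2 CPM in PR-SET7_LOBE, and at 108 and 97.2 CPM in DEN_WT. Both WT libraries were above every other library, and replicate 1 of PR-SET7_LOBE was the highest of its group. The difference of PR-SET7_LOBE from WT was -1.44 (SE 0.42) with an unadjusted p of 0.00597 and an adjusted p of 0.1602. It passed with DESeq2 (adjusted p = 0.0398), with voom (0.0341) and in the edgeR fit without PR-SET7_LOBE replicate 1, where it was -1.81 (0.0176). DEN_WT differed from WT by -0.67 (SE 0.51, adjusted p = 0.402). PR-SET7_LOBE against DEN_WT gave -0.77 (SE 0.43, adjusted p = 0.288), which passed with voom (0.00848) and without PR-SET7_LOBE replicate 1 (0.0285). Erbb3 shares no bases with another listed gene.

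Erbb2 (ENSMUSG00000062312, chromosome 11, 98273784 to 98299030, plus strand) was low throughout, at 5.65 and 2.03 CPM in WT, at 3.76, 3.16, 2.14 and 3.10 CPM in PR-SET7_LOBE, and at 1.59 and 1.32 CPM in DEN_WT. Both DEN_WT libraries were below all others, and WT and PR-SET7_LOBE overlapped. The log2 fold change of DEN_WT against WT was -1.39 (SE 0.67, adjusted p = 0.192), that of PR-SET7_LOBE against WT -0.34 (SE 0.55, adjusted p = 0.765), and without WT replicate 1 the latter turned to 0.57. PR-SET7_LOBE was above DEN_WT in all 4 libraries, with a difference of 1.05 (SE 0.60, adjusted p = 0.293). A gene on the opposite strand, 1810046J19Rik, overlaps Erbb2 and had 851 counts in all, and since no strand setting is given, part of either gene's reads could belong to the other.

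**Figure D1:**
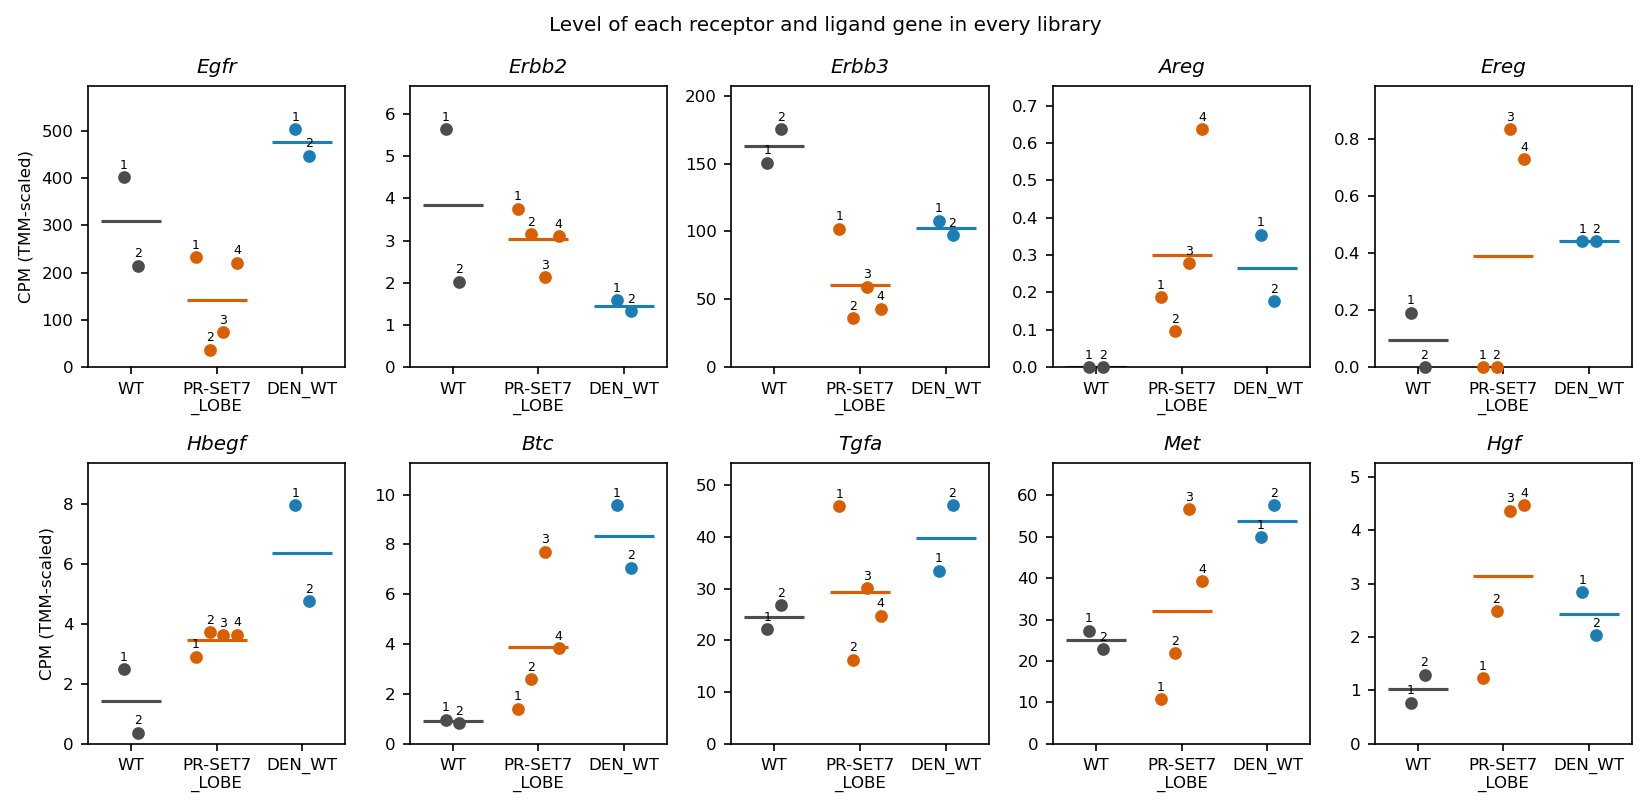
Level of each of the 10 genes (vertical axes, CPM on a linear scale that starts at 0 and differs between panels) in the 2 WT, 4 PR-SET7_LOBE and 2 DEN_WT libraries; points are libraries, marked with their replicate number, and horizontal lines are group means. Egfr spreads from 36.9 to 233 CPM within PR-SET7_LOBE, Erbb3 is highest in WT, and Btc is under 1 CPM in both WT libraries and at 7.07 and 9.56 CPM in DEN_WT.

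Among the ligands, Btc (ENSMUSG00000082361, chromosome 5, 91786287 to 91831939, minus strand) encodes betacellulin, which binds EGFR and ERBB4. It had 10 and 9 counts in WT, or 0.957 and 0.830 CPM. In PR-SET7_LOBE it had 15, 27, 83 and 42 counts, or 1.41, 2.58, 7.71 and 3.83 CPM, and in DEN_WT 108 and 80 counts, or 9.56 and 7.07 CPM. Every library of both other groups was above both WT libraries, and PR-SET7_LOBE overlapped DEN_WT only through its replicate 3. Btc rose in DEN_WT by 3.20 log2 units (SE 0.81, adjusted p = 0.0322), a fitted 9.20-fold. In PR-SET7_LOBE against WT the log2 fold change was 2.11 (SE 0.73, adjusted p = 0.209), and without replicate 1 of PR-SET7_LOBE it was 2.39 and passed (adjusted p = 0.0350). PR-SET7_LOBE against DEN_WT gave -1.10 (SE 0.60, adjusted p = 0.281). Both comparisons with WT use the same 2 WT libraries.

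The call of Btc in DEN_WT ended when any 1 of the WT or DEN_WT libraries was left out: adjusted p was 0.148 and 0.159 without WT replicates 1 and 2, and 0.145 and 0.109 without DEN_WT replicates 1 and 2, while the log2 fold change stayed between 2.99 and 3.42. With a correction for GC content it was 1.88 (adjusted p = 0.0516). Btc's transcripts had 37.7% GC, the lowest of the 10 members, against a median of 49.7% for tested genes. WT libraries deviated upward with GC where DEN_WT libraries deviated downward (values above). In these libraries the GC trend and the group cannot be told apart, and the part of GC content in the Btc difference was not tested. Btc lies inside Gm15710, a predicted gene of 868.955 kb on the same strand, and how reads of the shared bases were counted is not given. Gm15710 was at 12.0 and 11.4 CPM in WT, at 14.1, 7.84, 3.16 and 6.10 CPM in PR-SET7_LOBE and at 18.6 and 27.0 CPM in DEN_WT. Its log2 fold change in DEN_WT was 0.96 (SE 0.60, adjusted p = 0.308), and in PR-SET7_LOBE it was -0.58 (SE 0.51, adjusted p = 0.553), of opposite sign to that of Btc.

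**Figure D2:**
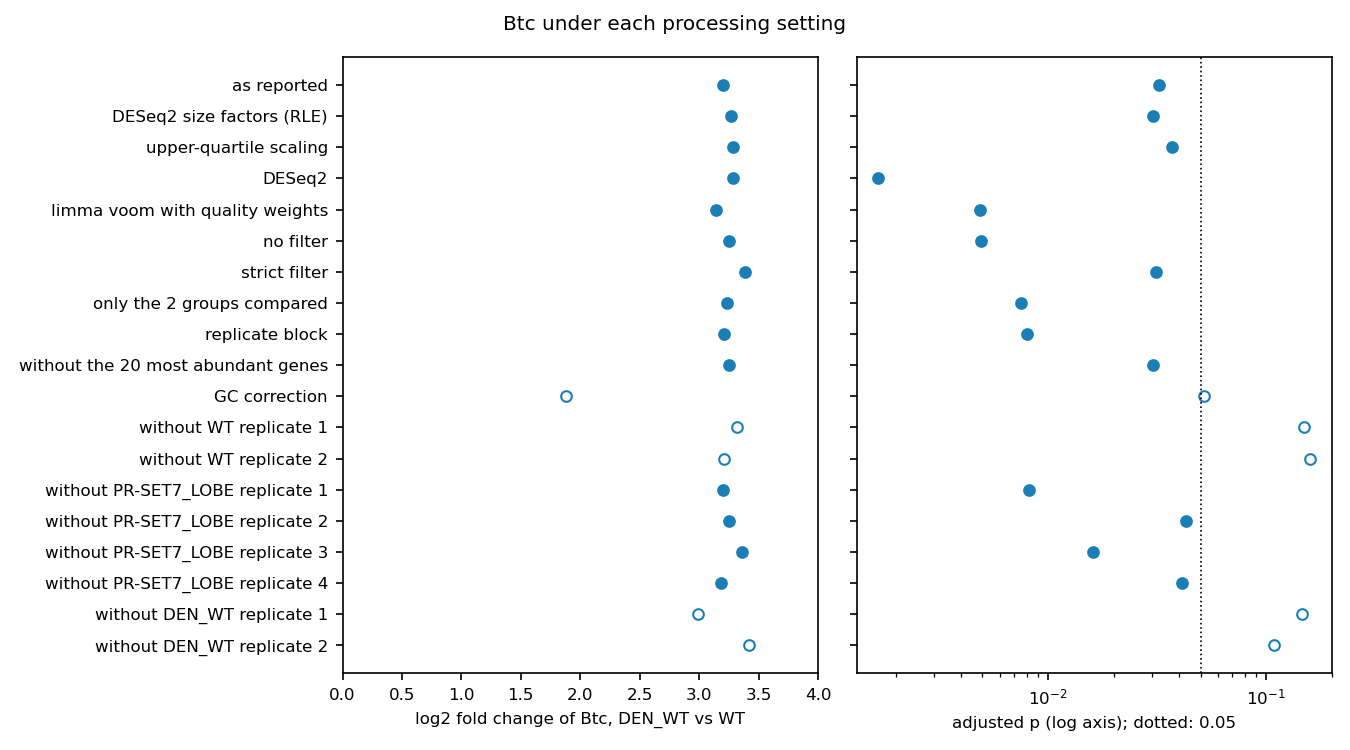
Btc in DEN_WT against WT under each way of processing: log2 fold change (left, linear axis from 0) and adjusted p (right, log axis, dotted line at 0.05), 1 line per setting, with filled points where the adjusted p is under 0.05. Every log2 fold change lies between 1.88 and 3.42, and the adjusted p is above 0.05 with the GC correction and in each fit that leaves out a WT or DEN_WT library.

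Areg and Ereg, the genes of amphiregulin and epiregulin, lie on the same chromosome, 208.829 kb from Btc in the case of Areg, with Ereg 45.966 kb from Areg. Areg (ENSMUSG00000029378, chromosome 5, 91568641 to 91577458, plus strand) had 0 counts in both WT libraries. The PR-SET7_LOBE libraries had 2, 1, 3 and 7, and the DEN_WT libraries 4 and 2. Against 3 counts over the WT group, the observed levels were 2.15-fold higher in PR-SET7_LOBE and 1.88-fold higher in DEN_WT. Neither value allows for counting error in the 13 and 6 counts of these groups, so neither is a lower bound. A fit with no filter gave adjusted p = 0.360 and 0.300. Ereg (ENSMUSG00000029377, chromosome 5, 91503643 to 91522675, plus strand) had 2 and 0 counts in WT. The PR-SET7_LOBE libraries had 0, 0, 9 and 8, and both DEN_WT libraries had 5. The ratio to WT was 4.22 in PR-SET7_LOBE (95% counting interval 1.00 to 37.7) and 4.71 in DEN_WT (1.00 to 44.2), with adjusted p = 0.576 and 0.605 in the fit with no filter. Of the PR-SET7_LOBE libraries, the 17 counts of Ereg came from replicates 3 and 4 alone. Epgn, the remaining EGF-family ligand gene of this cluster, had 6 counts in all 8 libraries.

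Hbegf (ENSMUSG00000024486, chromosome 18, 36664583 to 36675459, minus strand), which encodes heparin-binding EGF-like growth factor, was at 2.49 and 0.369 CPM in WT, at 2.91, 3.73, 3.62 and 3.64 CPM in PR-SET7_LOBE, and at 7.97 and 4.77 CPM in DEN_WT. The 3 groups did not overlap, and the 2 WT libraries differed by the widest ratio. DEN_WT against WT gave 2.15 (SE 0.77, adjusted p = 0.0966), which passed with DESeq2 (0.0324), with voom (0.0145) and without WT replicate 1 (0.0400, log2 fold change 4.08). PR-SET7_LOBE against WT gave 1.28 (SE 0.69, adjusted p = 0.347), and 3.19 without WT replicate 1. PR-SET7_LOBE against DEN_WT gave -0.87 (SE 0.61, adjusted p = 0.392).

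Tgfa (ENSMUSG00000029999, chromosome 6, 86145420 to 86225151, plus strand), the gene of transforming growth factor alpha, was at 22.2 and 26.8 CPM in WT, at 45.9, 16.3, 30.1 and 24.8 CPM in PR-SET7_LOBE, and at 33.5 and 46.1 CPM in DEN_WT. PR-SET7_LOBE ran from below both WT libraries to 45.9 CPM in replicate 1, next to the 46.1 CPM of DEN_WT replicate 2. The log2 fold change was 0.26 in PR-SET7_LOBE (SE 0.43, adjusted p = 0.770), where it turned to -0.04 without that replicate, and 0.70 in DEN_WT (SE 0.49, adjusted p = 0.360). Between PR-SET7_LOBE and DEN_WT it was -0.44 (SE 0.41, adjusted p = 0.523).

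Levels of different genes were compared per kb of exon. The 5 EGF-family ligand genes together summed to 4.19 and 4.39 CPM per kb in WT. Their sums in PR-SET7_LOBE were 8.14, 3.93, 7.52 and 6.12, and those of DEN_WT were 9.32 and 9.91. Tgfa held 81.6% and 94.1% of this sum in WT. Its PR-SET7_LOBE shares were 86.9%, 63.8%, 61.6% and 62.4%, and its DEN_WT shares 55.3% and 71.7%. Btc held 5.05% and 4.18% in WT, its PR-SET7_LOBE shares were 3.83%, 14.5%, 22.7% and 13.8%, and DEN_WT gave 22.7% and 15.8%. PR-SET7_LOBE replicate 1 thus had a Btc share below both WT libraries, and the other 3 PR-SET7_LOBE libraries had shares above them. Hbegf ranged from 1.74% to 19.6% over the 8 libraries, and the largest share of Areg was 8.58%, in PR-SET7_LOBE replicate 4. Btc transcripts had 37.7% GC and Tgfa transcripts 50.9%. PR-SET7_LOBE replicate 1, like WT, deviated upward with GC (r = 0.607), and the other PR-SET7_LOBE libraries and DEN_WT deviated downward. These shares describe transcripts and were not tested, nor was the part of GC content in them.

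**Figure D3:**
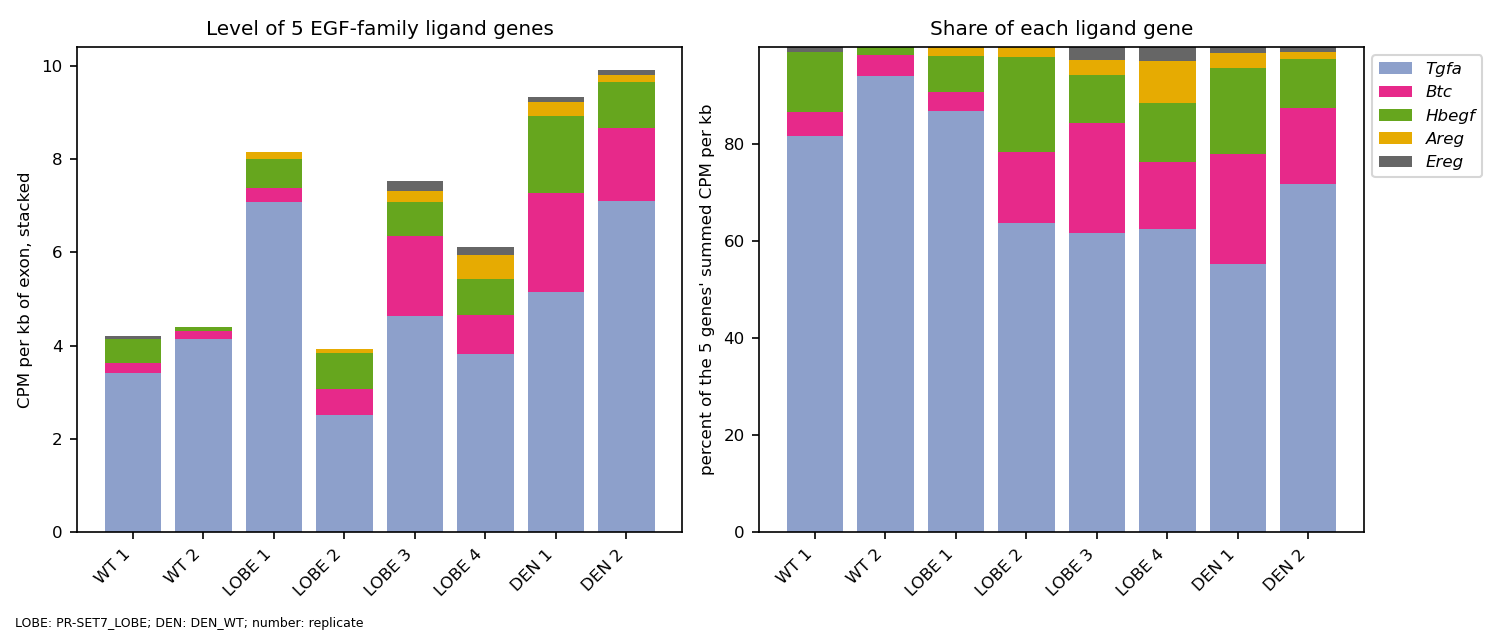
Summed level of the 5 EGF-family ligand genes in each library (left, CPM per kb of exon, stacked from 0) and the share of each gene in that sum (right, percent), with 1 bar per library. Tgfa is the tallest segment in all 8 libraries, and Btc takes 4.18% and 5.05% in WT against 15.8% and 22.7% in DEN_WT.

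Met (ENSMUSG00000009376, chromosome 6, 17413800 to 17523980, plus strand) was at 27.3 and 22.9 CPM in WT, at 10.8, 21.9, 56.6 and 39.3 CPM in PR-SET7_LOBE, and at 49.9 and 57.6 CPM in DEN_WT. Both DEN_WT libraries were above both WT libraries, and PR-SET7_LOBE ran from below WT to the level of DEN_WT, a ratio of 5.24. DEN_WT against WT gave 1.10 (SE 0.63, adjusted p = 0.270), which passed with voom (0.0320) and in the fit of DEN_WT and WT alone (0.0162). With the GC correction that difference was 0.63 (adjusted p = 0.411), and the part of GC content in it was not tested. PR-SET7_LOBE against WT gave 0.36 (SE 0.55, adjusted p = 0.749), and it turned to -0.04 with the GC correction. Against DEN_WT it gave -0.74 (SE 0.53, adjusted p = 0.401).

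Hgf (ENSMUSG00000028864, chromosome 5, 16059368 to 16125257, plus strand) was at 0.766 and 1.29 CPM in WT, at 1.22, 2.49, 4.36 and 4.46 CPM in PR-SET7_LOBE, and at 2.83 and 2.03 CPM in DEN_WT. Both DEN_WT libraries and 3 PR-SET7_LOBE libraries were above WT, and replicate 1 of PR-SET7_LOBE lay within the WT range. The log2 fold change was 1.596 in PR-SET7_LOBE (SE 0.69, adjusted p = 0.272), 1.87 without that replicate (adjusted p = 0.0525), and 1.23 in DEN_WT (SE 0.76, adjusted p = 0.300). PR-SET7_LOBE against DEN_WT gave 0.36 (SE 0.64, adjusted p = 0.743). With the GC correction the differences from WT were 0.90 and 0.06. Hgf transcripts had 39.9% GC, and the part of GC content in these differences was not tested. Markers of stellate cells and fibroblasts, a main source of HGF in liver, summed over 11 genes to between 156 and 219 CPM in WT, 230 and 319 CPM in PR-SET7_LOBE and 279 and 447 CPM in DEN_WT, led by Dcn and Col3a1. Endothelial markers, over 9 genes led by Cdh5 and Stab2, summed to between 332 and 405 CPM in WT, 212 and 324 CPM in PR-SET7_LOBE and 309 and 327 CPM in DEN_WT. Some markers went against the sum of their list in DEN_WT. Hand2, of the stellate list, was at 16.7 and 14.2 CPM in WT and at 4.16 and 2.30 CPM in DEN_WT. Lyve1, of the endothelial list, was at 1.72 and 5.16 CPM in WT and at 16.2 and 16.3 CPM in DEN_WT. No marker of either list was at 0 in all libraries, 0 of either list passed in either comparison with WT, and their part in the Hgf values was not tested. In bulk samples, fewer cells of a type and less RNA per cell cannot be told apart.

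Per kb of exon, the order of mean levels in WT was Egfr (27.2 CPM per kb), Erbb3 (27.1), Tgfa (3.78), Met (3.26), Erbb2 (0.737), Hbegf (0.296), Btc (0.198), Hgf (0.143), Ereg (0.0232) and Areg (0). Within WT the libraries of Egfr and Erbb3 overlapped, as did those of Tgfa and Met, of Erbb2 and Hbegf, and of Hbegf and Btc, and Ereg shared the count of 0 with Areg in replicate 2. In DEN_WT the order was Egfr (42.0), Erbb3 (17.1), Met (6.996), Tgfa (6.13), Btc (1.84), Hbegf (1.32), Hgf (0.338), Erbb2 (0.280), Areg (0.218) and Ereg (0.107). There Egfr and Erbb3 did not overlap, Met and Tgfa did, and Btc and Hbegf did. Hgf and Erbb2, and Erbb2 and Areg, also overlapped in DEN_WT. In PR-SET7_LOBE, Egfr (12.5) and Erbb3 (10.02) came first, followed by Tgfa (4.51), Met (4.19), Btc (0.859), Hbegf (0.719), Erbb2 (0.583), Hgf (0.436), Areg (0.247) and Ereg (0.0947). There every pair of neighbours in the order overlapped.

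Read as a set, 0 of the 8 tested members passed in PR-SET7_LOBE against WT, where 0.248% of all tested genes did. With edgeR, 3 had an unadjusted p under 0.05 (Erbb3, Btc and Hgf), where 17.2% of all genes did. DESeq2 and voom each called 1 member, and over all genes they called 890 and 386. Without PR-SET7_LOBE replicate 1, 2 members passed (Btc higher, Erbb3 lower), and the count over all genes went from 43 to 2392. In 3 members the groups did not overlap (Hbegf and Btc higher, Erbb3 lower), against 22.1% of all genes (11.6% higher, 10.5% lower). The median log2 fold change was 0.31 over the members and 0.11 over all genes.

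In DEN_WT against WT, 1 of the 8 tested members passed, against 9.73% of all tested genes (5.18% rose), and 2 had an unadjusted p under 0.05 (Btc and Hbegf), against 28.9%. All 8 had groups that did not overlap, 6 of them higher and 2 lower (Erbb2 and Erbb3), but so did 71.2% of all genes, 37.8% higher and 33.3% lower. The median was 0.90 over the members and 0.06 over all genes. In PR-SET7_LOBE against DEN_WT, 0 members passed with edgeR, against 11.1% of all genes, and 1 had an unadjusted p under 0.05 (Egfr), against 25.8%. DESeq2 called 1 member and voom 2. Over all genes voom called 5188, and the DESeq2 total is not given here, so its call cannot be read against a background. There 3 did not overlap (Egfr and Hbegf lower, Erbb2 higher), against 40.5% of all genes (21.2% lower, 19.3% higher), and the median was -0.75 against 0.18.

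**Figure D4:**
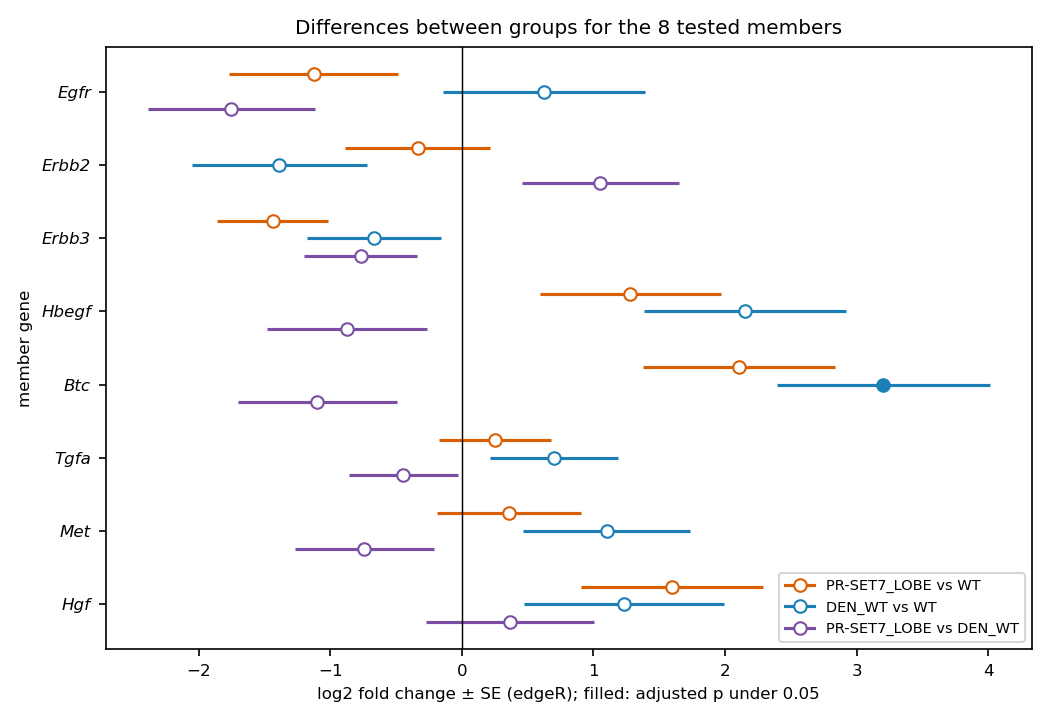
Log2 fold change with its SE (horizontal axis, edgeR) of the 8 tested members in the 3 comparisons, 1 line per gene; filled points passed at an adjusted p under 0.05. The 1 filled point is Btc in DEN_WT against WT at 3.20, and Erbb3 lies below 0 in all 3 comparisons.

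Other genes of the EGFR and MET systems were read from 6 lists of 94 genes, of which 91 were tested. In PR-SET7_LOBE against WT, 0 of 91 passed with edgeR, and 18 had an unadjusted p under 0.05 (19.8%, against 17.2% of all genes). DESeq2 called 11 and voom 5, and over all 17362 genes they called 890 and 386. Without PR-SET7_LOBE replicate 1, 18 passed, and 2392 of 17148 over all genes. In DEN_WT against WT, 9 rose and 1 fell, which is 10.99% of the 91 and near the 9.73% of all tested genes. The median log2 fold change was 0.39 against 0.06 over all genes. Transcriptional outputs and feedback genes held 4 of the 9, of 15 tested, with a median of 0.96 and 12 above 0. Below 0 were Spry4 (-0.30), Phlda1 (-1.80) and Myc (-2.01), named after their values were seen. None of these passed (adjusted p = 0.693, 0.164 and 0.190). Protease genes of ligand shedding and HGF activation held 2 of 16 (median 0.77), and the 27 adaptors and cytoplasmic effectors held 0 (median 0.02), with 5 at an unadjusted p under 0.05. In PR-SET7_LOBE against DEN_WT, 1 rose and 2 fell with edgeR, which is 3.30% of the 91, below the 11.1% of all tested genes. There 17 had an unadjusted p under 0.05 (18.7%, against 25.8% of all genes).

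Egr1, an immediate early gene induced by the MAP kinase route, was at 18.8 and 13.5 CPM in WT, at 34.7, 23.7, 22.4 and 9.47 CPM in PR-SET7_LOBE, and at 158 and 205 CPM in DEN_WT. It rose in DEN_WT by 3.49 log2 units (SE 0.59, adjusted p = 0.00559) and was lower in PR-SET7_LOBE than in DEN_WT by a log2 difference of -3.00 (SE 0.45, adjusted p = 0.00208). Dusp5 and Dusp6, phosphatases that switch off ERK, also rose in DEN_WT. Dusp5 was at 2.68 and 0.922 CPM in WT and at 12.8 and 24.8 CPM in DEN_WT, a log2 difference of 3.38 (SE 0.73, adjusted p = 0.0168), and PR-SET7_LOBE, at 4.98, 2.97, 2.60 and 1.64 CPM, was below DEN_WT by -2.62 (SE 0.55, adjusted p = 0.0111). Dusp6 was at 34.3 and 22.3 CPM in WT, at 75.2, 30.5, 80.4 and 37.8 CPM in PR-SET7_LOBE and at 90.0 and 184 CPM in DEN_WT, 2.28 higher in DEN_WT than in WT on the log2 scale (SE 0.59, adjusted p = 0.0364). Etv4, an ETS-family transcription factor, had 2 and 3 counts in WT and 21 and 52 in DEN_WT, a log2 difference of 3.72 (SE 0.94, adjusted p = 0.0308). Egr1 lost its call in DEN_WT against WT only without WT replicate 2 (adjusted p = 0.0546). Dusp5 lost it without WT replicate 2 or DEN_WT replicate 2, with an adjusted p of up to 0.146, and against PR-SET7_LOBE without DEN_WT replicate 2 (0.216). Dusp6 and Etv4 lost theirs without any 1 of the 4 WT and DEN_WT libraries, with adjusted p-values of up to 0.264 and 0.357.

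Among the neuregulins, which bind ERBB3, ERBB4 or both, Nrg1 had 0 and 3 counts in WT. The PR-SET7_LOBE libraries had 49, 86, 23 and 30, and those of DEN_WT 76 and 139. Its ratio to WT was 67.5 in DEN_WT (95% counting interval 22.8 to 330, adjusted p = 0.00815) and 31.1 in PR-SET7_LOBE (10.5 to 152, adjusted p = 0.0899). All 6 libraries of both groups were above WT, and the call in DEN_WT ended only without WT replicate 1 (adjusted p = 0.0580). The fitted log2 difference, 5.97, was 5.06 without that library and 9.72 without WT replicate 2, which leaves 0 counts in WT. Nrg3 fell in DEN_WT, from 14 and 49 counts in WT to 1 and 1, a ratio of 0.0299 (0.00354 to 0.113, adjusted p = 0.0193). With 7, 16, 13 and 24 counts, PR-SET7_LOBE was above DEN_WT in Nrg3 by a ratio of 15.8 (4.196 to 134, adjusted p = 0.0349), a call lost in 7 of 17 alternatives. In DEN_WT against WT, the call of Nrg3 ended without WT replicate 2 or either DEN_WT library (adjusted p up to 0.175). These 2 were the only genes of the list of other EGF-family ligands and receptor that passed in DEN_WT against WT, of 5 tested.

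Of the genes that act on HGF and MET, St14, the gene of matriptase, and Plat, the gene of tissue plasminogen activator, rose in DEN_WT. Plat was at 0.574 and 0.369 CPM in WT, at 11.6, 3.83, 13.6 and 2.92 CPM in PR-SET7_LOBE, and at 4.25 and 4.33 CPM in DEN_WT, where the log2 fold change was 3.16 (SE 0.88, adjusted p = 0.0448). St14 was at 0.957 and 0.369 CPM in WT, at 11.7, 7.37, 5.38 and 4.46 CPM in PR-SET7_LOBE, and at 4.87 and 3.00 CPM in DEN_WT, a log2 difference of 2.55 (SE 0.73, adjusted p = 0.0487). For both genes every library of PR-SET7_LOBE and DEN_WT was above WT. In PR-SET7_LOBE against WT the log2 fold changes were larger but did not pass. They were 4.05 for Plat (SE 0.85, adjusted p = 0.0850) and 3.43 for St14 (SE 0.70, adjusted p = 0.0802). Mst1r, which encodes the MET-related receptor RON, was at 1.15 and 0.553 CPM in WT, at 2.72, 9.47, 3.25 and 1.55 CPM in PR-SET7_LOBE and at 7.17 and 11.04 CPM in DEN_WT, 3.41 higher in DEN_WT than in WT on the log2 scale (SE 0.89, adjusted p = 0.0370). Mst1, the gene of its ligand, was named after its values were seen: it was at 312 and 414 CPM in WT, at 218, 160, 64.9 and 121 CPM in PR-SET7_LOBE, and at 133 and 181 CPM in DEN_WT, below WT in all 6 libraries, with adjusted p = 0.197 and 0.176, and it passed in 1 and 2 of 18 alternatives. Cd2ap, an adaptor in receptor internalisation, was at 11.2 and 6.55 CPM in WT, at 10.1, 26.5, 26.5 and 14.1 CPM in PR-SET7_LOBE and at 40.4 and 67.9 CPM in DEN_WT, a log2 difference of 2.61 (SE 0.58, adjusted p = 0.0190). The calls of Cd2ap, Plat and St14 ended with the GC correction, and those of Plat, St14 and Mst1r without any 1 of the 4 WT and DEN_WT libraries, where adjusted p reached 0.211, 0.247 and 0.191. Cd2ap lost its call without either WT library or DEN_WT replicate 2 (up to 0.140), and St14 also without PR-SET7_LOBE replicate 2.

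Errfi1, which encodes an inhibitor that binds the EGFR kinase domain, did not pass with edgeR and was likewise named after its values were seen. It was at 861 and 1139 CPM in WT, at 597, 281, 255 and 244 CPM in PR-SET7_LOBE, and at 937 and 1051 CPM in DEN_WT, so that all 4 PR-SET7_LOBE libraries were below the other 4. The log2 fold change of PR-SET7_LOBE was -1.54 against WT (SE 0.46, adjusted p = 0.163) and -1.53 against DEN_WT (adjusted p = 0.0555). The difference from WT passed with DESeq2 (0.0196), with voom (0.0309) and without PR-SET7_LOBE replicate 1 (0.0179), and that from DEN_WT passed in 7 of 18 alternatives, with adjusted p between 0.000407 and 0.365.

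**Figure D5:**
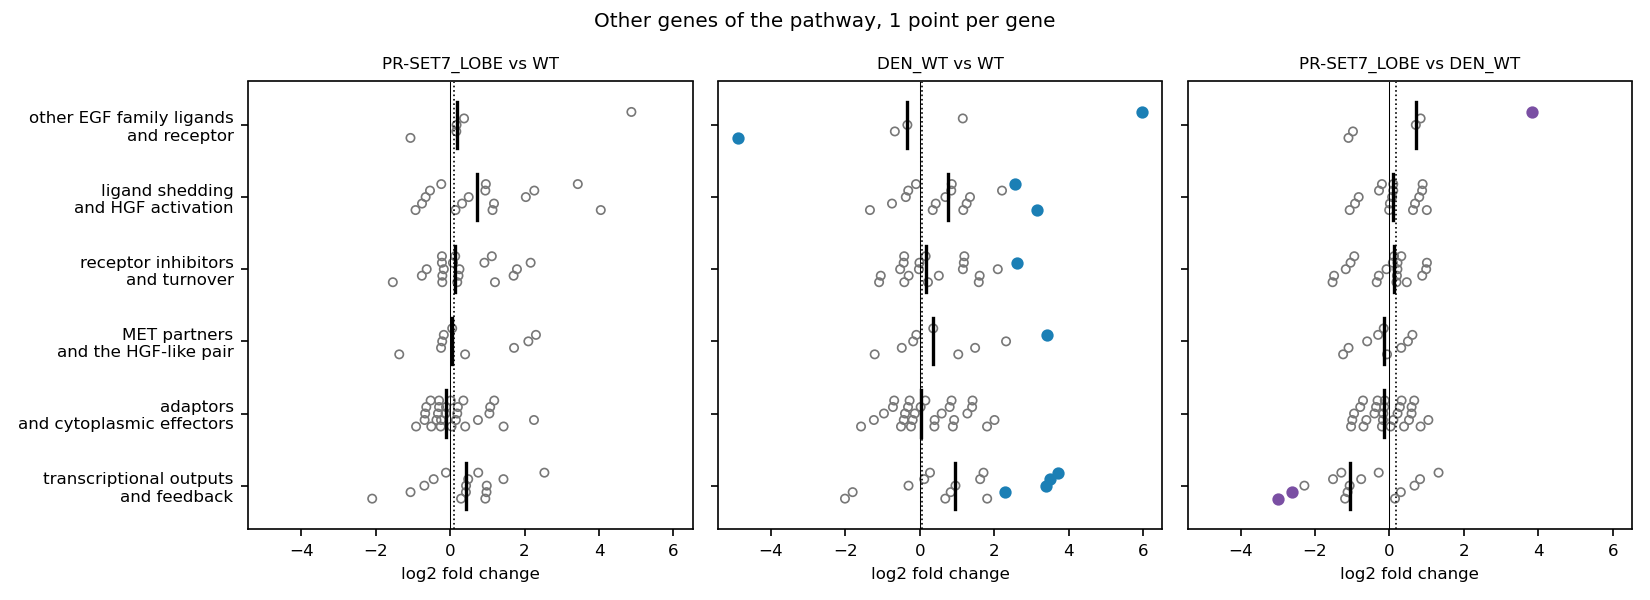
Log2 fold change (horizontal axes) of the tested genes of the 6 lists in each of the 3 comparisons, 1 point per gene and 1 line per list; filled points passed at an adjusted p under 0.05, short bars are list medians and the dotted line is the median of all tested genes. DEN_WT against WT holds 10 filled points, 4 of them among transcriptional outputs and feedback, and PR-SET7_LOBE against WT holds 0.

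Summed levels of some cell-type markers also differed between the groups. Cholangiocyte markers, led by Spp1 and Sox9, summed over 8 genes to between 19.6 and 30.3 CPM in WT, 102 and 273 CPM in PR-SET7_LOBE and 402 and 702 CPM in DEN_WT. Spp1 alone made up 383 and 679 CPM of the DEN_WT sums, while Krt7 was below WT, at 1.51 and 1.68 against 1.91 and 3.60 CPM, and Krt19 overlapped it, at 1.95 and 2.21 against 3.06 and 2.03 CPM. Proliferation markers summed over 6 genes to between 2.87 and 3.23 CPM in WT, 11.1 and 46.5 CPM in PR-SET7_LOBE and 20.9 and 24.5 CPM in DEN_WT. In DEN_WT against WT, 2 of 7 tested cholangiocyte and 3 of 6 tested proliferation markers rose, against 5.18% of all tested genes. In that comparison 1 of 5 neutrophil and 1 of 7 T and NK cell markers fell, against 4.54% of all genes. The median log2 fold change was 0.16 over the neutrophil list and -0.08 over the T and NK cell list. Over all genes it was 0.06. PR-SET7_LOBE against WT had 1 cholangiocyte and 0 proliferation markers that rose, against 0.15% of all genes. None of these markers was at 0 in all libraries, and their part in the values of the members and of Nrg1 was not tested.

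The genes nearest to Egfr in pattern over the 8 libraries, among 11083 genes considered, were Hamp, Nudt7 and Car3, with root mean square differences of 0.496, 0.515 and 0.572 in log2 CPM centred on each gene's mean. Egfr's own deviation from its mean was 1.23 on that scale. Nearest to Met were Prkaa2 (0.152), Pggt1b (0.162) and Fbxo45 (0.176), against its own 0.779. Nearest to Hgf were Zfp790 (0.204), Cenpl (0.213) and Vps13a (0.234), against its own 0.770. Egfr's nearest genes were thus further from it than those of Met or Hgf were from theirs, and the likeness is a description over 8 libraries.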

How the data were processed

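Messenger RNA of 8 liver libraries was sequenced on an Ion Proton with an Ion Torrent RNA kit, per the labels' protocols. The authors deposited raw counts of reads per gene on mm9, and the submitters' processing notes name DESeq, Cufflinks and TopHat2 (version 2.0.9). The sources used here give no counting tool, annotation or strand setting. The 8 single-sample files hold the same counts as the table. The members and gene lists were chosen with earlier results of these data known.

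All libraries entered 1 fit in edgeR 4.0.16 (R 4.3.3) with TMM scaling and filterByExpr by group, which left 17362 genes. Robust quasi-likelihood tests were adjusted by Benjamini-Hochberg over all of them, and the common biological coefficient of variation was 0.479. CPM are counts per 1000000 of the TMM-scaled library size. Exon lengths and GC content came from GENCODE M21, whose coordinates were not used; 96.6% of tested genes had a GC value. Alternatives were DESeq2 size factors, upper-quartile scaling, DESeq2 1.42.0, limma 3.58.1 voom with quality weights, no filter, a filter of 5 CPM in 2 libraries, the 2 groups alone, the replicate block, no 20 most abundant genes, a GC correction, and leaving out each library. Where that left 1 library in a group, it was assumed to vary like the others. All members were named, with up to 4 changed genes per pathway list by adjusted p, and for Egfr, Met and Hgf the 3 tested genes with the smallest root mean square difference of centred log2 CPM (prior count 2). 1 cell-type marker is not reported here and is left out of its sum.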

Additional observations from a re-analysis of the deposited data

Results flagged for a closer look

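Hbegf in PR-SET7_LOBE replicate 1, at 2.91 CPM (31 counts), lay below the other 3 libraries of that group, at 3.62, 3.64 and 3.73 CPM (39, 40 and 39 counts). The highest of the group was 1.28 times the lowest, the smallest such ratio of the 8 tested members. The gap of replicate 1 to the nearest library was a larger part of the group's range than Dixon's 95% critical value for 4 samples allows. Of 20 genes looked at this way in PR-SET7_LOBE, this was the only one, and chance alone gives about 1 in 20.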

How the results depend on the processing

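Among the recomputed member differences, 402 kept their direction and side of the threshold, 16 passed only under the alternative, 5 lost their call and 6 turned direction. Members called were, in PR-SET7_LOBE against WT, 1 with DESeq2, 1 with voom and 0 to 2 with 1 library left out; in DEN_WT against WT, 2 with DESeq2, 3 with voom, 2 in the 2 groups alone, 0 with the GC correction and 0 to 1 with 1 library left out (without WT replicate 1 the 1 was Hbegf); in PR-SET7_LOBE against DEN_WT, 1 with DESeq2, 2 with voom, 1 with no filter, 2 with the replicate block and 0 to 1 with 1 library left out. Directions turned for Erbb2 (0.57 without WT replicate 1, -0.82 to 0.57 with 1 library left out), Tgfa (-0.044 without PR-SET7_LOBE replicate 1, -0.044 to 0.52 with 1 library left out) and Met (-0.68 with the block, -0.042 with the GC correction) in PR-SET7_LOBE against WT, for Egfr in DEN_WT against WT (-0.011 with the GC correction) and for Hgf in PR-SET7_LOBE against DEN_WT (-0.47 with the block); the cause was not tested.

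Pathway genes called in PR-SET7_LOBE against WT were 1 with upper-quartile scaling, 11 with DESeq2, 5 with voom, 5 with no filter, 5 with the block, 1 with the GC correction and 0 to 18 with 1 library left out. In DEN_WT against WT they were 34 with voom, 35 in the 2 groups alone, 18 with the block and 1 to 25 with 1 library left out. In PR-SET7_LOBE against DEN_WT they were 6 with DESeq2 size factors, 8 with DESeq2, 23 with voom, 7 with no filter, 12 with the block, 7 with the GC correction and 1 to 7 with 1 library left out. All genes called in PR-SET7_LOBE against WT were 66 with upper-quartile scaling, 890 with DESeq2, 386 with voom, 419 with no filter, 19 in the 2 groups alone, 243 with the block, 115 with the GC correction and 1 to 2392 with 1 library left out. In DEN_WT against WT they were 3144 with DESeq2, 6335 with voom, 5643 in the 2 groups alone, 3137 with the block and 329 to 4549 with 1 library left out, and in PR-SET7_LOBE against DEN_WT 5188 with voom and 454 to 2662 with 1 library left out.

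Upper-quartile scaling moved the median of all genes in PR-SET7_LOBE against WT from 0.11 to 0.29 and the share of higher calls from 60.5% to 71.2%; no member changed direction under another scaling. Replicate numbers are the labels' only link between groups. Same-numbered libraries deviated together at r = 0.0599 for WT and DEN_WT, 0.165 and 0.106 for WT and PR-SET7_LOBE, and -0.00874 and 0.02002 for PR-SET7_LOBE and DEN_WT, so pairing was not established. With the replicate block, Egfr and Met passed in PR-SET7_LOBE against DEN_WT (-2.27 and -1.76, adjusted p = 0.0246 and 0.0181). The filter of 5 CPM in 2 libraries dropped Erbb2. With 2 libraries in WT and in DEN_WT and counts under 20 for Btc in WT, depth and the number of libraries limit the ligand results.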
